A study of Mus musculus with 10 samples.

Results

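The transcripts of 10 lineage transcription factors were followed in inflamed mouse skin in which basophils carried a conditional knockout of Vamp7. The factors were chosen by name as rows of the expression table, and all 10 of the 10 were found among 19175 genes. They are the GATA factors Gata1, Gata2 and Gata3, the C/EBP factors Cebpa, Cebpb, Cebpd and Cebpe, and Runx1, Ikzf1 (Ikaros) and Spi1 (PU.1). The samples were 5 skins of the genotype basophils VAMP7 CKO (CKO) and 5 of the genotype basophils VAMP7 Flox (Flox, labelled WT for treatment). The series' design text gives a total of 6 samples but names 5 of each genotype, and 10 labelled samples with 10 columns of values were used. All 10 were C57BL/6 skin from the MC903 model, in which the vitamin D analogue MC903 is put on skin and causes an itchy dermatitis, so no untreated skin was compared. The sources used here do not name the Cre driver, the age or sex of the mice or the day of sampling, and do not say that each library came from its own mouse. The p-values therefore measure spread among these libraries, part of which may be technical.

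Blood lineages are set by small sets of transcription factors that act together. GATA factors are zinc finger proteins that bind GATA sites in DNA. GATA2 is needed in blood progenitors, mast cells and basophils, GATA1 in red cells, megakaryocytes, mast cells and eosinophils, and GATA3 in T helper 2 cells and group 2 innate lymphoid cells, and also in hair follicle and epidermis. C/EBP factors are leucine zipper proteins of granulocytes, macrophages, fat cells and keratinocytes. In mouse progenitors shared by basophils and mast cells, C/EBP alpha favours the basophil fate. RUNX1 is required for blood stem cells to form, Ikaros is a zinc finger factor of lymphoid and myeloid cells, and PU.1 is an ETS factor of macrophages, granulocytes and B cells.

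The start regions below are shown because Gata2 and Gata1 were the factors whose CKO and Flox values did not overlap, and because Ms4a2 and Cd200r3, among the genes whose pattern was most like that of Gata2, hold GATA motifs there. Each runs 5′ to 3′ from 250 bases before to 50 bases after an annotated start, from RefSeq with build GRCm38.p6. Of the 10 factors, 7 had at least 1 such region in the table used, 10 regions in all. Gata2 has a distal start, known for use in blood cells, and a proximal start of wider use, and the expression table gives 1 value for the gene. Capitals mark matches on either strand. The GATA motif was spelled AGATAA or else TGATAA, the RUNX motif TGTGGT or else TGTGGC, the PU.1 motif GAGGAA and the C/EBP motif TTGCNNAA. No match overlapped another in the regions printed.
Gata2, distal start, chr6:88193641-88193940, plus strand: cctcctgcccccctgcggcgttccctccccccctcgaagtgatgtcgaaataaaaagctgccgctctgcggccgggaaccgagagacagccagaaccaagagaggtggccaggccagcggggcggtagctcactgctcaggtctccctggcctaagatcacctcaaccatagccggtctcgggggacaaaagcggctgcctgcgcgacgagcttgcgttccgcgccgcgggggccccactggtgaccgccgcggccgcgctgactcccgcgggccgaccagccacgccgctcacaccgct
Gata2, proximal start, chr6:88198414-88198713, plus strand: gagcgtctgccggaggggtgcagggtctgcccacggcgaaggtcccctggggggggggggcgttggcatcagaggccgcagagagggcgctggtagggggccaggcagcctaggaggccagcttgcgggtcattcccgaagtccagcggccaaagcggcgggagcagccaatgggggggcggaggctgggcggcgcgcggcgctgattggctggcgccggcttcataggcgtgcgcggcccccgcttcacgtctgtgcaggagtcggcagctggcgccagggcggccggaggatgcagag
Gata1, chrX:7967861-7968160, minus strand: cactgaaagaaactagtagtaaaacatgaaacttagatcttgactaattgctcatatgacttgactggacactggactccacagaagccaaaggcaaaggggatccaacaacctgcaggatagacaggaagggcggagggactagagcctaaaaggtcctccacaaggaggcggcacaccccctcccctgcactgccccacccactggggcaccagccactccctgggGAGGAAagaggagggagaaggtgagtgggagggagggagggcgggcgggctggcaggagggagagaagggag
Ms4a2, chr19:11623670-11623969, minus strand: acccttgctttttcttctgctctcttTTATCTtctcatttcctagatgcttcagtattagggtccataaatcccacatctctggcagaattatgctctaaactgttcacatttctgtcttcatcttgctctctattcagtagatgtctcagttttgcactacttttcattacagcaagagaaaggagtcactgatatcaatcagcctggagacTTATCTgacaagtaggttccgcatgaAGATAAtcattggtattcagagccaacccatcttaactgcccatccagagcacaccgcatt
Cd200r3, chr16:44943428-44943727, plus strand: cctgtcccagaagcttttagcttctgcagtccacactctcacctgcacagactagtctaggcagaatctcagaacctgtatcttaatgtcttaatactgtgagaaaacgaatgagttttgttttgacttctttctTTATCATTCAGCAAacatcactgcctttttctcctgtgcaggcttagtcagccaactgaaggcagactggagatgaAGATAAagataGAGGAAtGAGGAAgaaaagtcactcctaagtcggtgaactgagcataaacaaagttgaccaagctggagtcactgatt

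Neither Gata2 region held a match to any of the 4 motifs. The Gata1 region held 1 PU.1 match, which began 22 bases before the start. The Ms4a2 region held 3 GATA matches, which began 224, 37 and 11 bases before the start, and the Cd200r3 region held 2, which began 115 and 39 bases before it. The Cd200r3 region also held 2 PU.1 matches and 1 C/EBP match. Of all 32851 regions of this length, 18.6% held a GATA match, 32.4% a RUNX match, 28.3% a PU.1 match and 10.8% a C/EBP match. The region of Itga2b, the gene most like Gata2, and both regions of Cyp11a1 held 0 GATA matches and are not printed. No start region was at hand for Hrh4, another of the genes most like Gata2. A match describes letters only, and no binding was measured.

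Values were FPKM, which scales reads to transcript length and library size, so levels of different genes can be set side by side per length. The libraries summed to 525369 to 581022 FPKM, the number of reads is unknown, and 13186 genes that reached 1 FPKM in 5 or more libraries were tested, among them all 10 factors. Log2 fold changes are CKO minus Flox means of log2(FPKM + 1), so low genes change by more than they show, and adjusted p is from limma over every gene tested. The library CKO replicate 1 stood apart. Its muscle score, the mean log2 value of 20 skeletal muscle genes, was 5.42, while CKO replicates 2 to 5 scored 3.72 to 4.69 and Flox libraries 3.15 to 3.78, and its array quality weight was 0.272, against 0.561 to 2.12 in all others. Values without it are given beside the log2 fold changes and list medians that it moved by over 1.5 times. Because the muscle score was mostly higher in CKO than in Flox libraries, fits below that hold this score cannot well tell it apart from genotype. Keratinocyte markers, which check the label of skin, summed to 6841 to 8757 FPKM in CKO and 6554 to 9192 FPKM in Flox.

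Of the 10 factors, 1 fell in CKO skin and 0 rose (limma, adjusted p under 0.05), where 0.0607% of all genes tested fell and 0.0455% rose. At an unadjusted p under 0.05, 3 factors were lower and 2 higher, where 10.3% and 4.78% of all genes were. The factor that fell was Gata2. For 2 factors, Gata2 and Gata1, every CKO library lay below every Flox library, where this held for 3.00% of all genes tested. For 0 factors every CKO library lay above (1.24% of all genes), so that 2 of 10 were separated either way (4.23% of all genes). In all, 8 factors had a negative log2 fold change, against 60.5% of all genes, and their median was -0.19, against -0.027 over all genes tested. Counts within the gene lists below are to be read against these same shares.

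**Figure D1:**
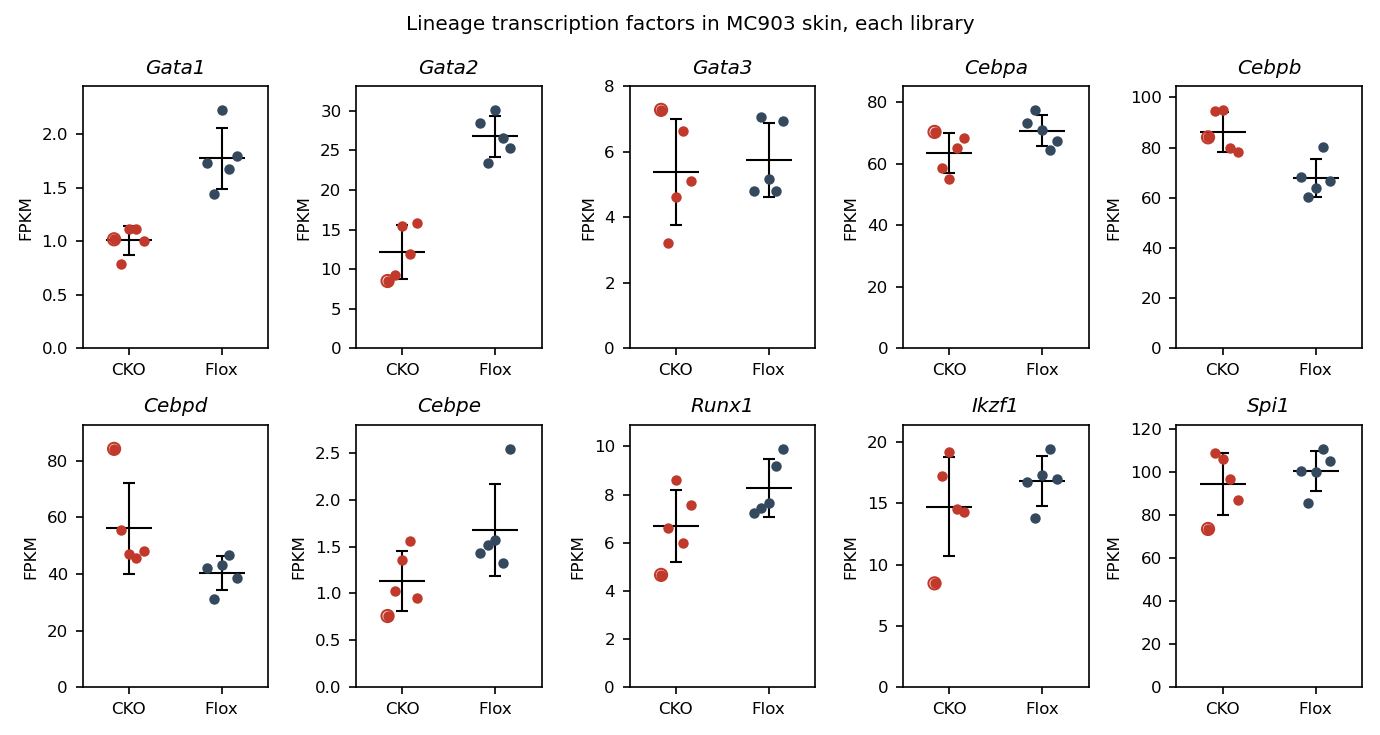
FPKM of the 10 factors in each library, CKO left and Flox right, with the mean and SD of 5 libraries as bars and CKO replicate 1 ringed. Gata2 (8.51 to 15.78 FPKM in CKO, 23.43 to 30.12 in Flox) and Gata1 (0.79 to 1.12 in CKO, 1.44 to 2.23 in Flox) are separated between the groups, and the other 8 factors overlap.

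Gata2 (Entrez 14461) was at 8.51, 9.23, 15.45, 11.9 and 15.78 FPKM in CKO replicates 1 to 5. It was at 28.47, 23.43, 30.12, 26.61 and 25.29 FPKM in Flox replicates 1 to 5. Every CKO library lay below the lowest Flox library, and CKO replicates 1 and 2 were the lowest. The mean was 12.2 ± 3.39 FPKM in CKO and 26.8 ± 2.62 FPKM in Flox (SD, n = 5 each), so that CKO skin held 45.5% of the Flox level. The log2 fold change was -1.11 (SE 0.16, 95% interval -1.46 to -0.76, limma adjusted p = 0.0463). Without CKO replicate 1 it was -1.0 (SE 0.14, limma adjusted p = 0.0320). The call was lost, at limma adjusted p = 0.0577 to 0.140, without CKO replicate 2 or 4 or without any 1 of the Flox replicates 1 to 5, at log2 fold changes of -1.16 to -1.03. It was also lost with no filter on low values (limma adjusted p = 0.0597), or when the model held the muscle score, where the log2 fold change was -0.86 (limma adjusted p = 0.338). In bulk skin, fewer cells of a type and less RNA per cell cannot be told apart.

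Gata1 (Entrez 14460) was a low transcript, at 1.02, 0.79, 1.12, 1.12 and 1.0 FPKM in CKO replicates 1 to 5. In Flox replicates 1 to 5 it was at 1.73, 1.44, 2.23, 1.68 and 1.8 FPKM. No CKO library reached the lowest Flox library. The mean was 1.01 ± 0.135 FPKM in CKO and 1.78 ± 0.288 FPKM in Flox (SD, n = 5 each), a 1.76-fold lower mean, and the log2 fold change of -0.46 (SE 0.082) did not pass (limma adjusted p = 0.0651). It passed with array quality weights alone among 17 alternatives (log2 fold change -0.48, limma adjusted p = 0.0438; 0.0438 to 0.365 over all of them). Without CKO replicate 1 it was -0.46 (limma adjusted p = 0.0825), and with a pseudocount of 0.1 it was -0.75 (limma adjusted p = 0.0664).

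Gata3 (Entrez 14462) overlapped between the groups. It ranged from 3.22 to 7.28 FPKM in CKO and from 4.80 to 7.05 FPKM in Flox, with a log2 fold change of -0.11 (95% interval -0.50 to 0.29, limma adjusted p = 0.837). Its highest library was CKO replicate 1 and its lowest CKO replicate 2, both of which were low in Gata2. Without CKO replicate 2 the sign turned, at 0.032. Without CKO replicate 1 it was -0.21, with quantile normalization -0.070, and in the fit with the muscle score -0.50 (limma adjusted p = 0.431).

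With all 10 libraries and a pseudocount of 1, the change of Gata2 differed from that of each other factor. In each library the log2(FPKM + 1) of a factor was taken from that of Gata2, and CKO and Flox differences were compared by exact permutation of the labels (two-sided, adjusted over the 9 comparisons). All 9 passed. Against Gata1 the difference was 2.68 ± 0.338 in CKO and 3.32 ± 0.0793 in Flox (SD, n = 5 each, exact permutation adjusted p = 0.00893), lower by 0.65 in CKO. Against Gata3, Spi1, Runx1 and Ikzf1 it was lower in CKO than in Flox by 1.0, 1.01, 0.83 and 0.89 on the log2 scale, and against Cebpa, Cebpb and Cebpd by 0.95, 1.45 and 1.55 (exact permutation adjusted p = 0.00893 for each of these 7). For these and Gata1 the CKO and Flox differences did not overlap, and the unadjusted p of 0.00794 is the smallest that the design allows. Against Cebpe it was lower in CKO by 0.79, with 4 of 5 CKO libraries below every Flox library (exact permutation adjusted p = 0.0159). Gata1 and Cebpe lie near 1 FPKM, where the pseudocount compresses their changes. With a pseudocount of 0.1 the differences were -0.42 for Gata1 (exact permutation adjusted p = 0.0357), a move of over 1.5 times, and -0.64 for Cebpe, which no longer passed (exact permutation adjusted p = 0.0556).

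**Figure D2:**
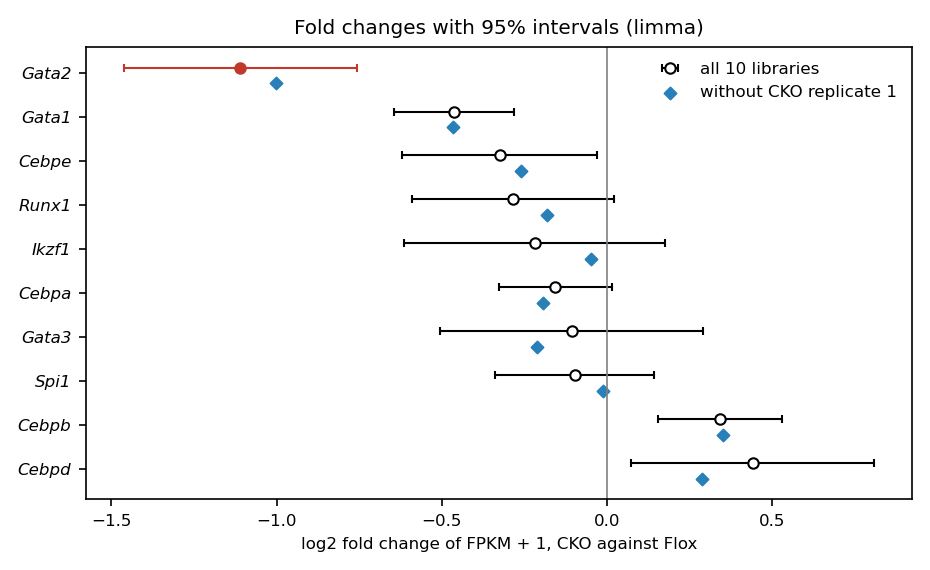
Log2 fold changes of FPKM + 1, CKO against Flox, with 95% limma intervals from all 10 libraries (circles, filled where adjusted p is under 0.05) and without CKO replicate 1 (diamonds, drawn with no interval). Gata2, at -1.11, is the factor whose circle is filled, and Cebpb and Cebpd lie on the positive side.

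Of the 4 C/EBP factors, 0 passed limma's test, with 2 higher and 1 lower at an unadjusted p under 0.05, where 4.78% and 10.3% of all genes were. Cebpb, the factor of inflammatory macrophages and of keratinocyte differentiation, was at 84.06, 94.55, 95.01, 79.66 and 78.36 FPKM in CKO replicates 1 to 5. It was at 68.1, 60.38, 64.05, 80.37 and 66.8 FPKM in Flox replicates 1 to 5. Of the CKO libraries, 3 lay above every Flox library, and the overlap came from Flox replicate 4. The mean was 86.3 ± 8.0 FPKM in CKO and 67.9 ± 7.55 FPKM in Flox (SD, n = 5 each), 1.27 times the Flox level, with a log2 fold change of 0.34 (SE 0.085, limma adjusted p = 0.135). Without CKO replicate 1 it was 0.35 (limma adjusted p = 0.172).

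Cebpd, an acute phase factor induced by inflammatory cytokines and glucocorticoids, was at 84.17, 55.59, 47.09, 45.79 and 48.18 FPKM in CKO replicates 1 to 5. In Flox replicates 1 to 5 it was at 42.22, 31.1, 43.04, 46.79 and 38.57 FPKM. CKO replicate 1 was far above the other 4, of which 3 still exceeded every Flox library. The log2 fold change was 0.44 (SE 0.17, limma adjusted p = 0.261), and without CKO replicate 1 it was 0.29 (SE 0.11, limma adjusted p = 0.300). In the fit with the muscle score it was 0.20 (limma adjusted p = 0.764). Reads of Cebpb and Cebpd may include reads of the opposite strand genes Tmem189 and Spidr, which overlap them in the GENCODE annotation of GRCm38 and reached 54.7 and 10.2 FPKM in these libraries. The sources used here do not say that counting used strand.

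Cebpa, the factor of granulocyte and monocyte commitment, averaged 63.5 ± 6.46 FPKM in CKO and 70.7 ± 5.07 FPKM in Flox (SD, n = 5 each), with a log2 fold change of -0.16 (SE 0.077, limma adjusted p = 0.369), or -0.24 in the fit with the muscle score. Cebpe, the factor of late granulocyte maturation, was low, at 0.76 to 1.56 FPKM in CKO and 1.33 to 2.54 FPKM in Flox, with a log2 fold change of -0.32 (SE 0.13, limma adjusted p = 0.293). It was -0.53 with a pseudocount of 0.1 and -0.20 with array quality weights. Its highest value, 2.54 FPKM, was that of Flox replicate 5, and the other Flox libraries reached 1.57 FPKM. Compared with each other in the same way as above, 4 of the 6 pairs of C/EBP factors changed by different amounts. The log2 difference of Cebpa and Cebpb was -0.44 ± 0.269 in CKO and 0.060 ± 0.244 in Flox, and that of Cebpa and Cebpd was 0.21 ± 0.317 in CKO and 0.80 ± 0.304 in Flox (SD, n = 5 each, exact permutation adjusted p = 0.0476 for each). The differences of Cebpb and Cebpd from Cebpe were higher in CKO by 0.67 and 0.77, at the same adjusted p (exact permutation). The pairs Cebpb with Cebpd and Cebpa with Cebpe did not pass (exact permutation adjusted p = 0.754 and 0.476). With a pseudocount of 0.1, 0 of the 6 passed. Without any 1 of CKO replicates 1, 2, 3 and 5 and Flox replicates 1, 2, 3 and 5, 0 passed as well (exact permutation adjusted p of these 4 pairs 0.0595 to 0.0952).

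Runx1, Ikzf1 and Spi1, which mark leukocytes broadly, were not called: 0 of the 3 passed, and 0 had an unadjusted p under 0.05 (limma). Spi1 had the highest mean of the 10 factors, at 94.4 ± 14.5 FPKM in CKO and 101 ± 9.28 FPKM in Flox (SD, n = 5 each), with a log2 fold change of -0.098 (95% interval -0.34 to 0.14, limma adjusted p = 0.728). In CKO its range overlapped that of Cebpb. In CKO replicate 1 Spi1 lay below Cebpb, at 84.06 FPKM, and Cebpd, at 84.17 FPKM. Ikzf1 was at 14.7 ± 4.03 FPKM in CKO and 16.8 ± 2.02 FPKM in Flox, with a log2 fold change of -0.22 (95% interval -0.61 to 0.17). Runx1 was at 6.69 ± 1.51 FPKM in CKO and 8.28 ± 1.19 FPKM in Flox, with a log2 fold change of -0.28 (95% interval -0.59 to 0.020). All 3 were lowest in CKO replicate 1, at 73.65 FPKM for Spi1, 8.47 FPKM for Ikzf1 and 4.67 FPKM for Runx1. Without that library the log2 fold changes were -0.013, -0.048 and -0.18. In the fit with the muscle score Spi1 and Ikzf1 turned to 0.076 and 0.15, and Runx1 was at -0.085. With array quality weights Runx1, Ikzf1 and Spi1 were at -0.17, -0.11 and -0.032.

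In Flox skin the order of levels was Spi1, Cebpa, Cebpb, Cebpd, Gata2, Ikzf1, Runx1, Gata3, Gata1 and Cebpe. The ranges of Cebpa and Cebpb overlapped there, as did those of Gata1 and Cebpe, and no other neighbours did. In CKO skin Cebpb, at 86.3 FPKM, stood above Cebpa, at 63.5 FPKM, and Gata2, at 12.2 FPKM, stood below Ikzf1, at 14.7 FPKM, with overlapping ranges. In Flox skin Gata2 was at 26.8 FPKM and Ikzf1 at 16.8 FPKM, without overlap.

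The 5 genes whose profile over the 10 libraries was most like that of Gata2, out of 13176 candidates, were Itga2b, Ms4a2, Cyp11a1, Hrh4 and Cd200r3. Likeness was the root mean square difference of log2(FPKM + 1) values centred on each gene's mean, and it was 0.088, 0.089, 0.13, 0.17 and 0.20 for these genes, against a median of 0.61 over all candidates. All 5 belong to a list of 12 basophil markers, which was chosen with earlier results of these data known. This measure also grows where a gene changes in the same direction by a larger amount. By it Mcpt8, another marker of that list, ranked 12781 of the 13176 candidates, at 0.86. Mcpt8 was nevertheless lower in CKO without overlap, at a log2 fold change of -2.56 (limma adjusted p = 0.0507), so its rank does not show an unlike direction. Itga2b encodes the integrin CD41, Ms4a2 the beta chain of the IgE receptor, Cyp11a1 a steroidogenic enzyme, Hrh4 the histamine H4 receptor and Cd200r3 a receptor that activates basophils and mast cells. Ms4a2 was at 6.77, 8.30, 13.17, 10.28 and 13.50 FPKM in CKO replicates 1 to 5, and at 25.21, 21.20, 25.10, 21.01 and 18.38 FPKM in Flox replicates 1 to 5. Among CKO libraries it was lowest in replicate 1 and then in 2, 4, 3 and 5, the order of Gata2. Itga2b was at 4.39, 5.67, 7.97, 6.82 and 8.54 FPKM in CKO replicates 1 to 5 and at 12.67 to 15.76 FPKM in Flox, with the CKO libraries in that order too. Cyp11a1, Hrh4 and Cd200r3 did not keep that order. Among CKO libraries they were lowest in replicate 1 as well, but highest in replicate 3, while Gata2 was highest in replicate 5. The ranking describes these libraries, which share the group difference, and says nothing of control of one gene by another.

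**Figure D3:**
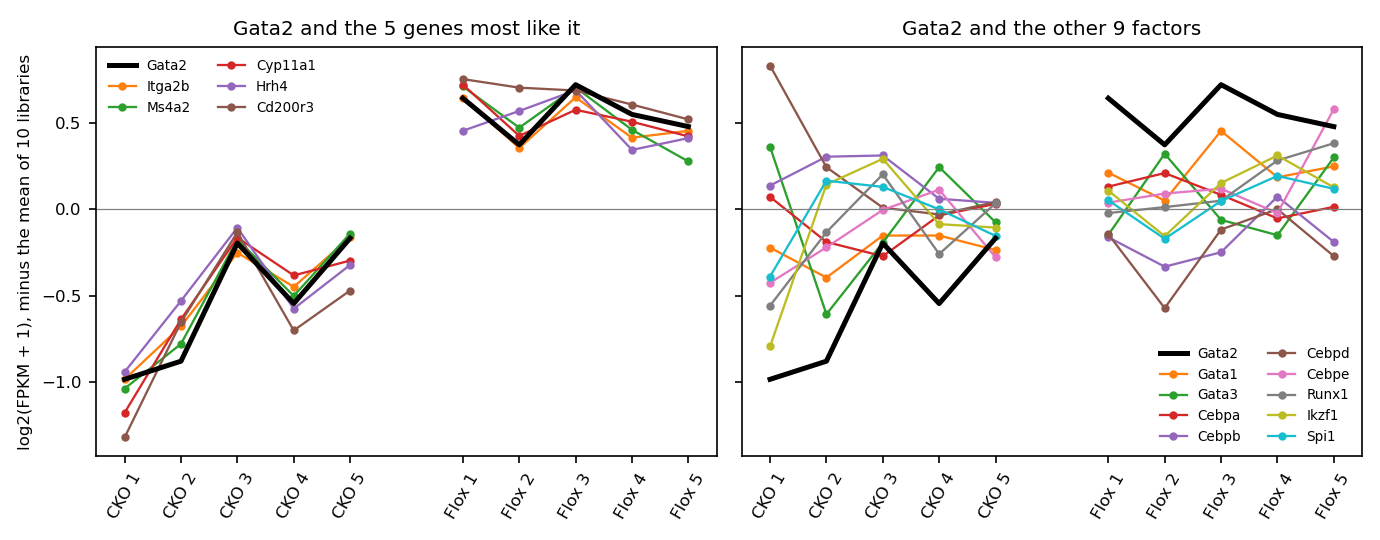
Log2(FPKM + 1) minus the mean of 10 libraries, with the 5 CKO libraries left and the 5 Flox libraries right. The left panel shows Gata2 (black) with the 5 genes most like it, which follow it within root mean square differences of 0.088 to 0.20, and the right panel shows Gata2 with the other 9 factors, of which Gata1 is the other factor without overlap between the groups.

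Set beside 5 basophil markers, Gata2 changed less than Mcpt8, the basophil granule protease. Mcpt8 was at 6.56, 18.42, 43.21, 28.77 and 37.41 FPKM in CKO replicates 1 to 5 and at 116.28 to 159.60 FPKM in Flox. The log2 difference of Gata2 and Mcpt8 was -0.88 ± 0.702 in CKO and -2.33 ± 0.223 in Flox (SD, n = 5 each), higher in CKO by 1.44 without overlap (exact permutation adjusted p = 0.0397 over 5 comparisons). Against Cd200r3, Itga2b, Hrh4 and Cyp11a1 the change of Gata2 differed by 0.20, -0.099, -0.12 and -0.046 on the log2 scale, and 0 of these 4 passed (exact permutation adjusted p = 0.238, 0.238, 0.367 and 0.627). These 4 are among the 5 genes most like Gata2 over the same libraries. Small differences from them were therefore given beforehand, and the test adds nothing to that ranking. A p that misses the threshold does not show equal changes, and without CKO replicate 3 the difference from Itga2b passed, at -0.13 (exact permutation adjusted p = 0.0397). Of the 12 basophil markers, 3 fell (Cd200r3, Hrh4 and Itga2b) and 11 had a negative fold change, and the median log2 fold change was -1.03 against -0.027 over all genes tested. These 3 calls were lost without CKO replicate 2 or 4 or any 1 of the Flox replicates, those of Cd200r3 and Hrh4 without CKO replicate 5 and that of Itga2b without CKO replicate 3 as well, at limma adjusted p = 0.0537 to 0.144 and log2 fold changes of -1.36 to -0.94. All 3 were also lost with no filter on low values (limma adjusted p = 0.0597 each) and in the fit with the muscle score (limma adjusted p = 0.222 to 0.288), and that of Hrh4 with a pseudocount of 0.1 (limma adjusted p = 0.0547). The summed level of all 12 basophil markers was 148 to 289.9 FPKM in CKO and 385 to 446 FPKM in Flox, and its part in the change of Gata2 was not tested.

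Markers of the other cells that use GATA factors were set beside this. The 9 tested mast cell markers had a median log2 fold change of 0.0075, or -0.010 with equal library totals and -0.011 without CKO replicate 1, and 0 passed (limma), with 1 lower and 0 higher at an unadjusted p under 0.05. Their sum was 583 to 734 FPKM in CKO and 488 to 742 FPKM in Flox, and Kit, the stem cell factor receptor, was at 7.70 ± 0.426 FPKM in CKO and 6.82 ± 1.05 FPKM in Flox. The chymase gene Mcpt1, the marker with the low unadjusted p, was at 0.678 ± 0.371 FPKM in CKO and 1.57 ± 0.655 FPKM in Flox (log2 fold change -0.61, limma adjusted p = 0.226), and Cma2 at 0.90 ± 0.732 FPKM in CKO and 1.46 ± 0.177 FPKM in Flox (limma adjusted p = 0.346). All 7 tested eosinophil markers lay below 0, at a median log2 fold change of -0.67, and 0 passed (limma), with 5 lower at an unadjusted p under 0.05. Their sum over 10 genes was 28.3 to 60.1 FPKM in CKO and 46.7 to 84.2 FPKM in Flox. The eosinophil lectin Siglecf was at 1.93 ± 0.322 FPKM in CKO and 3.78 ± 0.928 FPKM in Flox (limma adjusted p = 0.0651). Alox15 was at 6.74 ± 2.51 FPKM in CKO and 14.1 ± 2.10 FPKM in Flox, and Ccr3 at 1.75 ± 0.406 and 3.83 ± 1.13 FPKM (limma adjusted p = 0.0833 for each). Siglecf, Alox15 and Ccr3 did not overlap between the groups. Epx, a granule gene chosen here after its values were seen, reached 0.02 FPKM in CKO and 0.07 FPKM in Flox. The number of eosinophils was not measured. The 8 tested platelet, megakaryocyte and red cell markers had a median of -0.051, or -0.11 without CKO replicate 1, and 0 passed, with 0 at an unadjusted p under 0.05 (limma). The 10 tested T and innate lymphoid markers, cells that use GATA3, had a median of -0.13, or 0.012 without CKO replicate 1, and 0 passed, with 1 lower at an unadjusted p under 0.05 (limma). Their sum was 143 to 290.2 FPKM in CKO and 222 to 288 FPKM in Flox.

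Among markers of the cells that use C/EBP factors and PU.1, the 9 tested neutrophil markers had a median of 0.49, with 8 positive and 0 past the test, and 3 higher at an unadjusted p under 0.05 (limma). Their sum over 15 genes was 3658 to 8539 FPKM in CKO and 2891 to 4920 FPKM in Flox, and Elane, Mpo, Camp, Ngp, Ltf and Ly6g, most of them granule genes made by immature neutrophils, stayed below the level tested. The decoy receptor Il1r2 was at 175 ± 39.6 FPKM in CKO and 106 ± 21.5 FPKM in Flox (limma adjusted p = 0.135). The 12 macrophage and monocyte markers had a median of -0.058, or 0.026 without CKO replicate 1, and 0 passed, with 1 lower and 2 higher at an unadjusted p under 0.05 (limma). The 8 tested dendritic and Langerhans cell markers had a median of -0.16, or 0.057 without that library, and 0 passed, with 1 lower (limma). Of 5 B cell markers 1 was tested, Cd79b, at -0.20, or -0.060 without that library. Adgre1 (F4/80) was at 33.3 ± 4.77 FPKM in CKO and 47.3 ± 6.26 FPKM in Flox, without overlap (limma adjusted p = 0.116). Mertk was at 21.0 ± 1.13 FPKM in CKO and 17.8 ± 1.42 FPKM in Flox (limma adjusted p = 0.147). Cd14 was at 114 ± 64.6 FPKM in CKO and 59.07 ± 11.04 FPKM in Flox (limma adjusted p = 0.261). Its CKO mean rested on replicates 2 and 3, at 217.06 and 139.52 FPKM, while replicates 1, 4 and 5 were at 70.68 to 73.19 FPKM and Flox reached 78.62 FPKM. All 17 tested skeletal muscle markers lay above 0, at a median log2 fold change of 0.89, or 0.61 without CKO replicate 1, and 0 passed, with 16 at an unadjusted p under 0.05 (limma). Their sum was 516 to 2025 FPKM in CKO, the highest in CKO replicate 1, and 341 to 589.6 FPKM in Flox. The part of these cells in the values of the C/EBP factors was not tested.

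**Figure D4:**
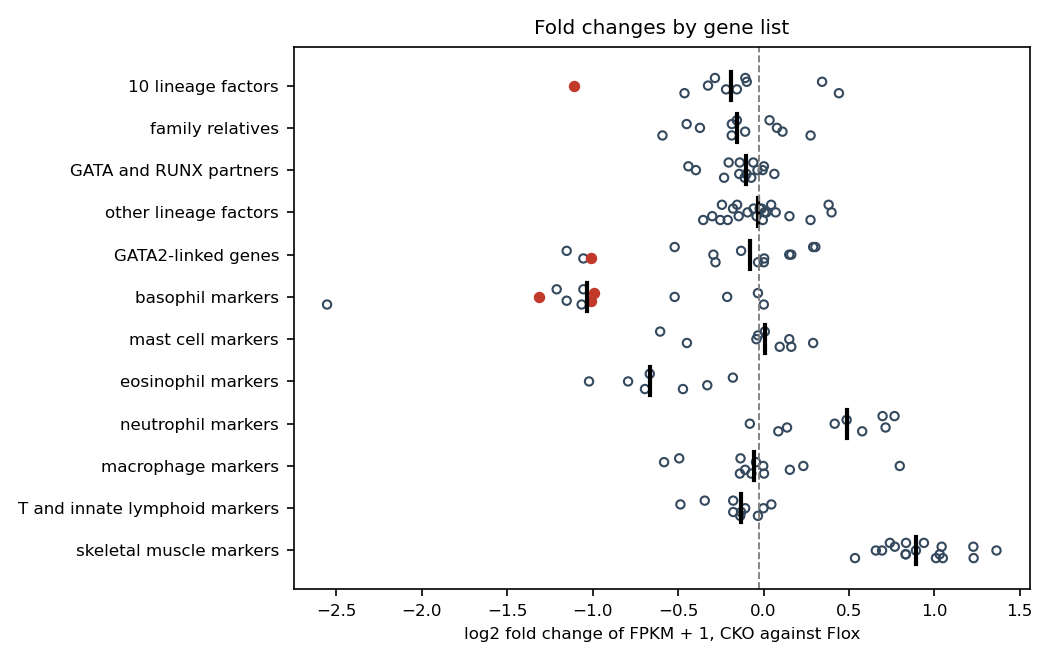
Log2 fold changes of FPKM + 1, CKO against Flox, of each tested gene by list, with the median of a list as a black bar and that of all genes tested (-0.027) as a dashed line. Filled points passed limma at an adjusted p under 0.05, and the medians run from -1.03 for basophil markers to 0.89 for skeletal muscle markers.

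GATA1 and GATA2 bind DNA in a complex with TAL1, LMO2 and LDB1, and RUNX factors bind with CBF beta. Of 14 tested partners of these factors, 12 lay below 0, at a median log2 fold change of -0.11, and 0 passed (limma), with 5 lower and 0 higher at an unadjusted p under 0.05. Tal1, a helix-loop-helix factor of blood and endothelium, was at 2.11, 2.42, 3.01, 2.69 and 2.78 FPKM in CKO replicates 1 to 5. It was at 3.31 to 4.36 FPKM in Flox, without overlap, and its log2 fold change was -0.40 (SE 0.082, limma adjusted p = 0.0833, or 0.0441 with array quality weights). Cbfa2t3, a corepressor found in that complex, was at 2.04 ± 0.413 FPKM in CKO and 3.12 ± 0.545 FPKM in Flox, also without overlap, with a log2 fold change of -0.44 (SE 0.11, limma adjusted p = 0.140). Lyl1, a relative of Tal1, had a log2 fold change of -0.20 (SE 0.067), Cbfb of -0.100 (SE 0.043) and the ETS factor Fli1 of -0.23 (SE 0.10). Gfi1b, a repressor of red cells and megakaryocytes that was chosen here after its values were seen, lay below the level tested, at 0.23 to 0.37 FPKM in CKO and 0.48 to 0.74 FPKM in Flox.

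The family relatives of the 10 factors were 15 genes, of which 11 were tested. Gata4, Gata5, Gata6 and Ikzf4 stayed below that level. Of the 11, 7 lay below 0, where 60.5% of all genes did. The median log2 fold change of the 11 was -0.16, and 0 passed (limma), with 2 lower and 1 higher at an unadjusted p under 0.05. Ikzf2 (Helios), an Ikaros relative of T cells, was at 1.27 ± 0.363 FPKM in CKO and 1.91 ± 0.203 FPKM in Flox, with a log2 fold change of -0.37 (SE 0.11, limma adjusted p = 0.184). The RUNX relatives lay on opposite sides, with Runx3, a factor of cytotoxic T cells and Langerhans cells, at 15.8 ± 1.66 FPKM in CKO and 12.9 ± 1.65 FPKM in Flox. Runx2, best known from bone, was at 2.29 ± 0.850 FPKM in CKO and 3.39 ± 0.567 FPKM in Flox. Neither passed (limma adjusted p = 0.235 for Runx3 and 0.275 for Runx2), and the log2 fold change of Runx2 was -0.45, or -0.29 without CKO replicate 1. The log2 fold change was -0.59 (SE 0.33) for Spic, a PU.1 relative of macrophages, or -0.30 without CKO replicate 1, and -0.11 (SE 0.061) for Ikzf5. Without CKO replicate 1 the median of the 11 was -0.0048.

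Of 22 tested further factors of basophil, mast, myeloid and innate lymphoid cells, 14 lay below 0, where 60.5% of all genes did. Their median log2 fold change was -0.032, or -0.016 without CKO replicate 1. Of these 22, 0 passed (limma), with 5 lower and 3 higher at an unadjusted p under 0.05. Id2, an inhibitor of helix-loop-helix factors, ranged over 90.52 to 101.33 FPKM in CKO and 73.09 to 85.41 FPKM in Flox, without overlap (log2 fold change 0.28, SE 0.059, limma adjusted p = 0.0923). Bcl11b, a factor of T cells and group 2 innate lymphoid cells, ranged over 2.67 to 3.77 FPKM in CKO and 3.89 to 5.06 FPKM in Flox, also without overlap (log2 fold change -0.35, SE 0.082, limma adjusted p = 0.121). Zeb2, Stat5a, which acts downstream of the IL-3 receptor, and Klf4, a factor of monocytes and of the skin barrier, were at log2 fold changes of -0.30 (SE 0.10), -0.25 (SE 0.094) and 0.40 (SE 0.15).

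Genes linked to GATA2 in basophils and mast cells lay on both sides of 0. Of 14 tested, 8 had a negative and 6 a positive log2 fold change, the median was -0.082, or -0.037 without CKO replicate 1, and 1 fell, Itga2b, with 6 lower and 0 higher at an unadjusted p under 0.05 (limma). Ms4a2 averaged 10.4 ± 2.95 FPKM in CKO and 22.2 ± 2.94 FPKM in Flox (SD, n = 5 each), with a log2 fold change of -1.05 (SE 0.17, limma adjusted p = 0.0511). Il4, the type 2 cytokine, was at 3.49 ± 1.57 FPKM in CKO and 8.67 ± 2.32 FPKM in Flox (log2 fold change -1.15, SE 0.24, limma adjusted p = 0.0845). Slc18a2, the vesicular monoamine transporter, was at 1.88 ± 0.179 FPKM in CKO and 2.50 ± 0.170 FPKM in Flox, without overlap (log2 fold change -0.28, SE 0.061, limma adjusted p = 0.0983). Fcer1a, the alpha chain of the IgE receptor, was at 33.6 ± 9.02 FPKM in CKO and 47.9 ± 8.58 FPKM in Flox (log2 fold change -0.52, SE 0.18, limma adjusted p = 0.228). The libraries that were low in Gata2 and Ms4a2, CKO replicates 1 and 2, were also the lowest of all 10 in Itga2b and Il4. Fcer1a went the other way among CKO libraries, at 44.08 and 42.21 FPKM in replicates 1 and 2 and 23.59 to 29.44 FPKM in replicates 3 to 5, and Slc18a2 was highest among them in replicate 1, at 2.07 FPKM.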

How the data were processed

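Poly(A) RNA of mouse skin was measured in 10 samples, 5 CKO and 5 Flox, grouped by the titles in the labels. The authors deposited 1 table of FPKM per gene with 2 decimals, per the file headers. Reads were single-end DNA nanoball reads per the labels' protocols, and HISAT was the aligner named per the submitters' processing notes. The sources used here do not give the counter, genome build, annotation or versions. Depth is unknown, so no counting interval is given and the number of libraries limits the precision.

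The test was limma-trend (limma 3.58.1, R 4.3.3, robust off), two-sided, on log2(FPKM + 1) for 13186 genes that reached 1 FPKM in 5 or more libraries, with Benjamini-Hochberg adjustment over all of them at 0.05. Log2 differences between genes were tested by exact permutation. On simulated data of 13186 genes for CKO against Flox, limma found 66%, 92%, 100% and 100% of sets of 50 genes changed by 0.5, 1, 2 and 3 on the log2 scale, and made 4 false calls.

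The members and lists were chosen with earlier results of these data known. Named were all 10 factors, of each list of factors and of GATA2-linked genes those that passed and up to 5 of lowest p, of each marker list up to 3 of lowest p, the markers set beside Gata2 and the 5 genes most like Gata2. Start regions came from RefSeq, build GRCm38.p6. Alternatives were array quality weights, equal library totals, quantile normalization, a pseudocount of 0.1, all genes above 0 (no filter), the muscle score in the model, the replicate number as a block, and each library left out in turn.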

Additional observations from a re-analysis of the deposited data

Results flagged for a closer look

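In 8 of 124 groups of 5 libraries, over 62 named genes, the highest library lay far from the others by Dixon's test. Chance flags about 1 in 20 groups. Of the lineage factors, Cebpd was at 84.17 FPKM in CKO replicate 1, against 45.79 to 55.59 FPKM in the other CKO libraries. Cebpe was at 2.54 FPKM in Flox replicate 5, against 1.33 to 1.57 FPKM in the other Flox libraries, and the corepressor Cbfa2t3 was at 4.07 FPKM in the same library, against 2.69 to 3.02 FPKM. Il4 was at 12.79 FPKM in Flox replicate 2, against 7.30 to 8.18 FPKM. In Flox replicate 4, Slc18a2 was at 2.80 FPKM, against 2.38 to 2.45 FPKM, and Cd14 at 78.62 FPKM, against 52.14 to 56.51 FPKM. Mmp8, a neutrophil collagenase, was at 19.16 FPKM in CKO replicate 2, against 7.61 to 10.81 FPKM. Myh1, a fast muscle myosin, was at 125.6 FPKM in CKO replicate 1, against 22.26 to 48.63 FPKM.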

How the results depend on the processing

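The number of lineage factors that fell in CKO was 1 with all libraries and 0 to 1 with each library left out in turn. It was 0 with no filter on low values, with the muscle covariate and with the replicate block, and 2 with array quality weights, Gata2 and Gata1. With the replicate block the adjusted p of Gata2, Cd200r3 and Itga2b was 0.158 and that of Hrh4 0.156. The number that rose was 0 in every fit. Over all genes 6 were higher and 8 lower, 0 to 11 and 0 to 15 with each library left out, 1 and 2 with no filter, 30 and 60 with array quality weights, 2 higher with equal library totals, and 0 and 0 with the muscle covariate and with the replicate block, where 1252 and 1911 genes had an unadjusted p under 0.05 (limma). Same-numbered samples showed no clear shared deviation, which does not show that they were unpaired. Their deviations correlated at -0.21 to 0.21, and 1 of 5 CKO samples correlated best with its own number. Permuting within the replicate block, where 0.0625 is the smallest p, called 0 of 9, 0 of 5 and 0 of 6 differences between genes. Gata2 differed from all 9 other factors without any 1 library, from 1 to 2 of 5 basophil markers (2 without CKO replicate 3), and 0 to 4 of 6 C/EBP pairs passed, 0 with a pseudocount of 0.1. Of 170 values of the 10 factors under 17 alternatives, 156 kept their sign and side of the threshold. That count is mostly of factors that were not called and stayed so. All 10 values that lost a call were those of Gata2, so the 1 factor called lost its call in 10 of 17 alternatives. Those that changed sign were Gata3 (-0.21 to 0.032 with a library left out), and Ikzf1 (0.15) and Spi1 (0.076) with the muscle covariate. Of other named genes, Spic (0.13), Cd79b (0.062), Hba-a1 (-0.31), Lor (-0.13) and Krt10 (-0.17) changed sign with the muscle covariate, and Ppbp (-0.34 to 0.0025) and Hba-a1 (-0.036 to 0.37) with a library left out. The causes were not tested.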
